A study of Homo sapiens
Mus musculus with 2 samples.

Results

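Shallow mouse cells were examined in 2 Drop-seq libraries of a lymphocyte mixture. They were chosen by 2 measured values of a barcode, its number of UMIs (1000 or more and under 2000) and the share of these on mouse genes (at least 90%). Neither value is therefore a finding about these cells. UMIs are random tags that mark single captured transcripts, so that PCR copies count only once. The rule gave 121 of the 6000 deposited barcodes, or 121 of the 770 mouse barcodes of at least 1000 UMIs. The other 649, with at least 2000 UMIs and the same purity, are called deep mouse cells here and served as the comparison.

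Both libraries came from a 1:1:1:1 mixture of Jurkat and TALL-104, which are human T cell lines, with EL4 from mouse T cells and IVA12 from mouse B cells. All are established lines, and the labels name no treatment. They were loaded on the Dolomite droplet system at 150 cells per µl for the first library (the 150 library) and at 300 cells per µl for the second (the 300 library). Each loading concentration had 1 library, so no difference between the concentrations was tested, and the spread between the libraries covers loading as well as technical error.

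In droplet methods each barcode stands for a bead, and a bead collects the mRNA of the cell in its droplet together with RNA that floats free in the suspension. A barcode with few UMIs may come from a small cell, from a cell that lost part of its RNA, or from a droplet in which free RNA makes up much of the capture. In damaged cells, RNA in the cytoplasm is generally lost before RNA in mitochondria or in the nucleus. The shares of mitochondrial and nuclear RNA were not analysed here, because the deposited tables give genes by Ensembl identifier only and no mouse gene names were used. Genes are therefore given by identifier, and whether any of those below is mitochondrially encoded or retained in the nucleus was not determined. The mouse classes below are not assigned to EL4 or IVA12.

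The 150 library held 2398956 UMIs over 2000 barcodes and the 300 library 8707135 UMIs over 4000 barcodes. Shallow mouse cells numbered 12 in the 150 library, 14.1% of its 85 mouse cells (exact 95% binomial interval 7.51% to 23.4%). The 300 library held 109, 15.9% of 685 mouse cells (13.3% to 18.9%). They held only 15582 and 144531 mouse UMIs, against 1044738 and 5371136 in the deep cells. All sums over shallow cells of the 150 library therefore rest on few counts. Intervals of shares cover counting error only, and intervals of medians cover the spread between cells within 1 library. Neither covers the spread between libraries.

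Members of the 150 library ranged from 1004 to 1628 UMIs, with a median of 1347. Those of the 300 library ranged from 1002 to 1995 UMIs, with a median of 1294. Deep cells had medians of 13411 and 8284 UMIs. Of mouse barcodes just outside the limits, those nearest below held 959 and 994 UMIs and those nearest above 2006 and 2024. On purity, the least pure members had 91.5% and 90.1% mouse UMIs, and the nearest barcodes of that depth outside had 86.0% and 89.5%. Of the 300 library, 30 members lay between 90% and 95%, and 27 barcodes of the same depth lay between 85% and 90%, so the purity limit cut through a continuous range. Barcodes of the members' depth that were mostly mouse but below the limit, called mixed here, numbered 8 and 74.

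Barcode errors can give a shallow copy of a deep cell, so the barcodes themselves were compared with all deeper barcodes of their table. The 2 tables shared 1 barcode, which was not a cell of at least 1000 UMIs in both and belonged to no member. In each library 1 member lay within 1 mismatch of a deeper barcode, and in both cases that barcode was a deep mouse cell of the same profile class (class A, defined below). The 12-base barcodes of these pairs are shown with the letter that differs in capitals.
150 library, member of 1263 UMIs: Ccggttataaan
150 library, deep cell of 21362 UMIs: Acggttataaan
300 library, member of 1488 UMIs: tgatgtgttctT
300 library, deep cell of 2424 UMIs: tgatgtgttctN
The first pair differed at position 1, counted from the first base, and both of its barcodes end in n, an undetermined base. The second pair differed at position 12, where the deep cell's barcode has the undetermined base, so these barcodes share every base that was read in both. Barcodes ending in n made up 3 of 12 members in the 150 library (25%, 5.49% to 57.2%) and 5 of 109 in the 300 library (4.59%, 1.51% to 10.4%). Among deep cells they made up 5.48% and 5.21%. The intervals of the 2 libraries overlapped, and for all but 2 of the 121 members no barcode within 1 mismatch was found.

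Human UMIs were read as a measure of foreign RNA. The rule limits them to 10% of a member's UMIs, so they are given as a description. Barcodes of 200 to 600 UMIs, taken as background, numbered 1672 and 2053, and 28.7% and 17.2% of their UMIs were human. The 12 members of the 150 library held from 2 to 128 human UMIs with a median of 43.5, and the 73 deep cells from 14 to 178 with a median of 45. The 109 members of the 300 library held from 2 to 160 with a median of 42 (95% interval of the median 31 to 53), and the 576 deep cells from 3 to 1091 with a median of 33.5 (31 to 36). The number of human UMIs per barcode was thus of the same size in shallow and deep cells, although deep cells had many times the total. As a share of all UMIs the medians were 3.28% and 3.18% in members, and 0.333% and 0.393% in deep cells.

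**Figure D1:**
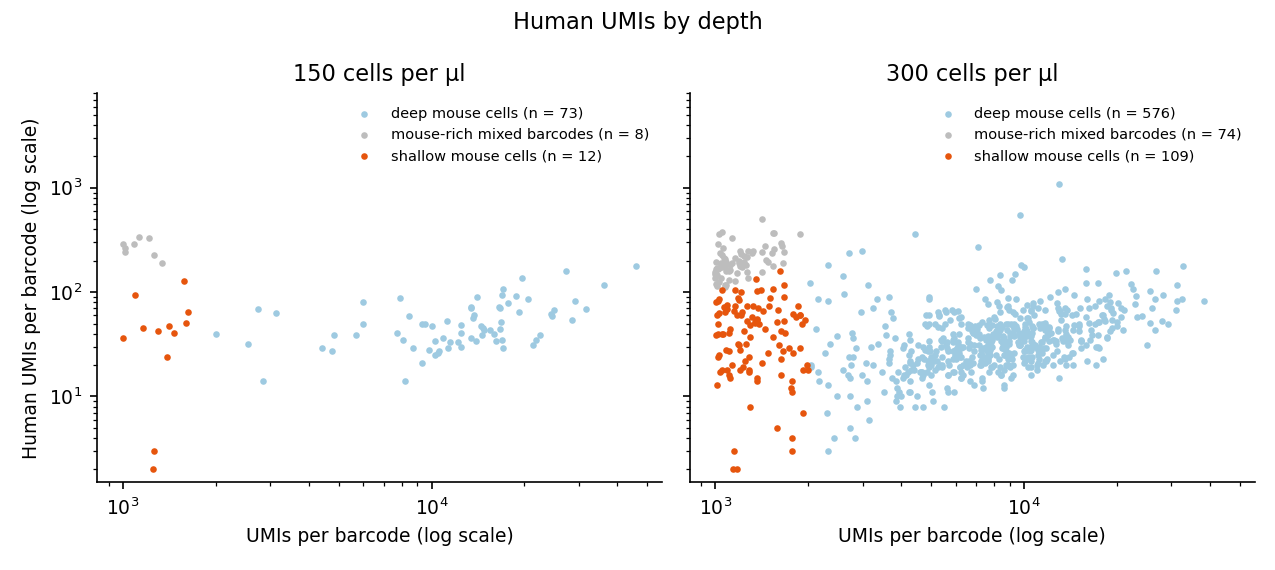
Human UMIs per barcode against all UMIs per barcode, both on log scales, for shallow mouse cells, deep mouse cells and mouse-rich mixed barcodes of each library. Each point is 1 barcode. Shallow members, with medians of 43.5 and 42 human UMIs, spread over the same heights as most deep cells and sit below the mixed barcodes, as the purity limit requires.

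If all human UMIs of a barcode are taken to come with free RNA of the background's composition, the mouse and human background together made up a median of 11.4% of a member's UMIs in the 150 library and 18.5% in the 300 library. Single members ranged from 0.554% to 29.5% and from 0.986% to 57.7%. In deep cells the medians were 1.16% and 2.29%. Along depth in the 300 library, this share was 22.2% from 1000 UMIs, 14.03% from 1500 UMIs, 4.24% from 2000 to under 4000 UMIs and 1.96% at 8000 or more. The estimate in UMIs moved less than the share, with 256, 215, 122 and 245 UMIs in the same 4 ranges. From 4000 to under 8000 UMIs the values were 2.62% and 157 UMIs. The estimate in UMIs was thus lower from 2000 to under 8000 UMIs than in members. Since the estimate is the human share divided by that of the background, the purity limit also bounds it in members, and it is not compared with that of the mixed barcodes.

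Mouse cell classes were then assigned. The first principal component of the 649 deep cells, which held 22.5% of the variance of the variable genes, split them into 385 cells (class A) and 264 cells (class B), with an empty stretch between the lowest A score of 3.8 and the highest B score of -1.29. For every mouse barcode, the share of its mouse UMIs drawn from the class A profile was then estimated in a mixture of the A and B profiles, each taken from deep cells of the other library. A share of at least 0.75 was called A, a share of at most 0.25 was called B, and anything between was called intermediate. Deep cells thinned to members' depths returned their class in 73 of 73 and 566 of 576 cells, so low depth alone did not prevent the call. Deep cells had less estimated background than members, with medians of 1.16% and 2.29% against 11.4% and 18.5%. The call was therefore not checked at the members' background.

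In the 150 library 7 members were class A, 5 were class B and 0 of 12 were intermediate (exact interval up to 26.5%). In the 300 library 42 members were class A (38.5%, 29.4% to 48.3%), 49 were class B (45.0%, 35.4% to 54.8%) and 18 were intermediate (16.5%, 10.1% to 24.8%). Of the 576 deep cells of the 300 library, 342 were class A (59.4%, 55.2% to 63.4%), 224 were class B (38.9%, 34.9% to 43.0%) and 10 were intermediate (1.74%, 0.836% to 3.17%). Intermediate barcodes thus took a larger share among members than among deep cells in the 300 library, beyond counting error. At 95% purity the shares were 6.33% (2.09% to 14.2%) and 0.880% (0.286% to 2.04%), and with limits of 0.9 and 0.1 they were 54.1% and 4.69%. Among cells given a class there, B made up 53.8% of members (43.1% to 64.4%) and 39.6% of deep cells (35.5% to 43.7%), and the intervals overlapped slightly. Seen from the class, 17.9% of B cells (13.6% to 23.0%) and 10.9% of A cells (7.997% to 14.5%) of that library were shallow. The corresponding shares of the 150 library were 14.3% (4.81% to 30.3%) and 14% (5.82% to 26.7%).

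The intermediate calls lay along a gradient rather than in a separate group. The median share drawn from the other class's profile was 0.106 in members of the 300 library and 0.0154 in its deep cells at equal depth, and 18 members lay within 0.05 of a class limit. It was 0.0071 in members of the 150 library. The mixed barcodes had medians of 0.32 and 0.42, and 6 of 8 and 66 of 74 of them were intermediate. The summed background of the 300 library drew 0.532 of its mouse UMIs from the A profile. Across the 109 members of the 300 library, the share from the other profile and the percent of human UMIs went together (Pearson r = 0.67, Spearman rho = 0.74), both within the 42 A members (r = 0.77) and within the 49 B members (r = 0.70). The 18 intermediate members had a median of 6.20% human UMIs, against 3.17% in A and 2.54% in B members. These values share a library and the same barcodes, and the part of free RNA in the intermediate calls was not tested.

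**Figure D2:**
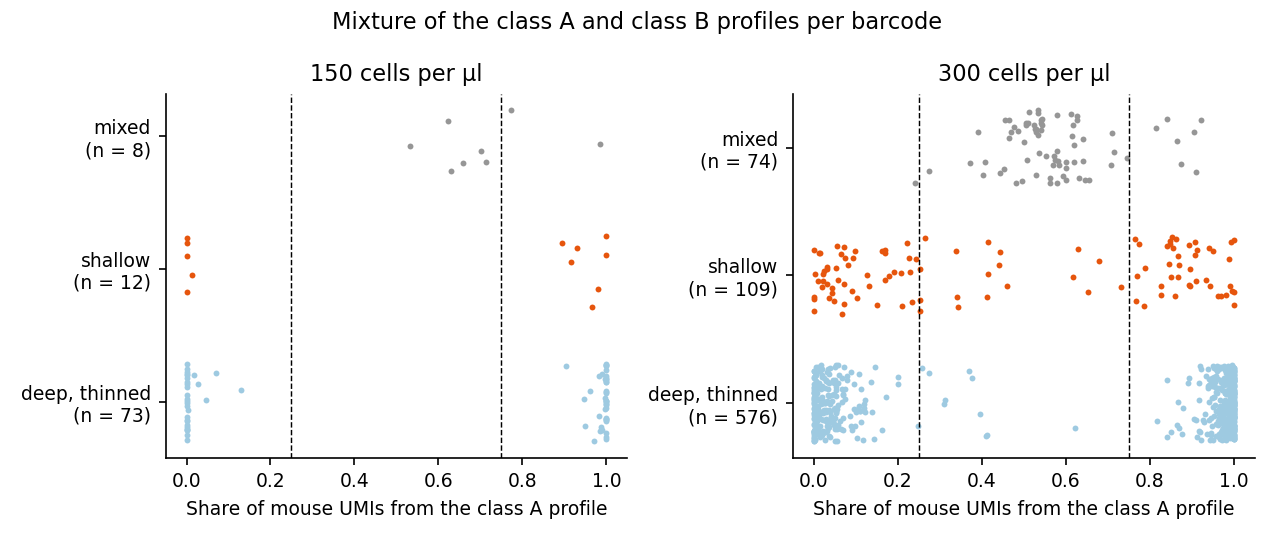
Share of each barcode's mouse UMIs drawn from the class A profile (x axis, from 0 for class B to 1 for class A) for deep cells thinned to members' depths, shallow members and mixed barcodes, with 1 point per barcode and dashed lines at 0.25 and 0.75. In the 300 library 18 of 109 members lie between the lines against 10 of 576 deep cells, while in the 150 library 0 of 12 members do.

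Transcript complexity was compared after every barcode was thinned to 1000 UMIs. Members of the 150 library then had from 633 to 775 genes with a median of 705.5, and deep cells had a median of 703. Members of the 300 library had from 636 to 796 genes with a median of 731, and deep cells had 727. The 95% intervals of the medians overlapped, with 674 to 722 against 695 to 711 genes in the 150 library and 722 to 736 against 724 to 730 in the 300 library. The 50 most abundant genes of a barcode held medians of 23.4% and 22.8% of the thinned UMIs in members, and 23.4% and 22.6% in deep cells. When mouse UMIs alone were thinned, to 900, the members had 629 genes in the 150 library and 655 in the 300 library, against 645 and 667 in deep cells. The intervals then overlapped in the 150 library (603 to 660 against 638 to 652) and did not in the 300 library (649 to 662 against 665 to 669), where 29.4% of members exceeded the deep median. With human UMIs counted, members were thus level with or slightly above deep cells, and with mouse UMIs alone they were lower, beyond the intervals in the 300 library only.

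The members' transcript make-up was compared with that of deep cells. To keep the choice of genes apart from their measurement, genes were chosen in one library and read in the other. At least 100 UMIs in shallow cells of the 300 library were found for 193 genes, and 13 of them (6.74%) had at least 1.5 times their deep-cell share of mouse UMIs. At least 20 UMIs in the 150 library were found for 107 genes, and 17 of them (15.9%) passed the same ratio. The count limit was set on members' own UMIs, so it lets in genes through the group where they are high. These 2 percents can therefore be raised by the filter and describe the choice only. These lists had 9 genes in common, 52.9% of the longer and 69.2% of the shorter.

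Read in the other library, both lists again took a larger share of members' UMIs. The 13 genes chosen in the 300 library held 7.65% of the mouse UMIs of members in the 150 library (7.24% to 8.08%), 2.17% in deep cells (2.14% to 2.20%) and 1.68% in background (1.64% to 1.72%). The 17 genes chosen in the 150 library held 4.41% in members of the 300 library (4.31% to 4.52%), 2.58% in deep cells (2.57% to 2.60%) and 2.69% in background (2.65% to 2.73%). Shares in members were thus 3.52 and 1.71 times those in deep cells, and 3.10 and 1.498 times without the 2 most abundant genes of each list. Of the single genes, 12 of 13 and 16 of 17 lay above the deep cells in the library that had not chosen them. Over all genes with at least 5 expected UMIs, 29.0% of 525 genes did so in the 150 library and 44.8% of 4897 in the 300 library. The background barcodes had a lower share than the members in both libraries.

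Genes that were lower in members carried over weakly or not at all. For these, the count limits were set on the UMIs expected in members from the deep-cell share. The percents passing are therefore not comparable with those of the higher genes. In the 150 library 21 of 119 genes (17.6%) lay at or below the deep-cell share divided by 1.5. In the 300 library 12 of these lay below the deep cells and 9 above, with a median log2 ratio of -0.052. Over all genes with at least 5 expected UMIs there, that median was -0.058. The 21 genes held 4.45% of members' UMIs in the 300 library (4.35% to 4.56%) and 4.61% of those of deep cells (4.59% to 4.62%), a ratio of 0.967. B members had 4.42% (4.26% to 4.58%) against 5.21% in deep B cells (5.18% to 5.24%), a ratio of 0.848, and A members had 4.36% (4.20% to 4.53%) against 4.18% in deep A cells (4.16% to 4.21%). Choosing in the 300 library gave 1 of 192 genes (0.521%), which was also among the 21. In the 150 library it held 0.0898% of members' UMIs on 14 UMIs (0.0491% to 0.151%) against 0.146% in deep cells (0.139% to 0.153%), a ratio of 0.616 with overlapping intervals.

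The larger share came from a group of class B members. All 5 B members of the 150 library had 11.7%, 15.6%, 16.4%, 16.9% and 17.2% of their mouse UMIs on the 13 genes. The 7 A members had 0.952%, 0.981%, 1.04%, 1.16%, 1.19%, 1.69% and 2.23%. The classes did not overlap. The A members lay in the range of deep A cells thinned to members' depths, 0.622% to 7.54%. The summed share of the deep A cells was 1.43%. Deep B cells had a summed share of 3.13% (3.08% to 3.19%), against 15.8% (14.98% to 16.7%) in the B members.

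On the 17 genes, B members of the 300 library had a summed share of 7.43% (7.23% to 7.63%) against 3.77% in deep B cells, while A members had 1.83% (1.72% to 1.94%) against 1.76% in deep A cells. The 49 B members fell into 2 groups. Shares of 9.42% to 20.1% were found in 22 of them (44.9%, 30.7% to 59.8%), the remaining 27 lay at or below 4.64%, and none lay between. A limit of 7%, set within this gap after the values were seen, is used below to count cells. It was reached by 0 of 42 A members, the highest of which had 3.52%, and by 0 of 18 intermediate members, the highest of which had 3.53%. The exact intervals of these zero counts reach up to 8.41% and 18.5%. Among deep cells of the same library, 11 of 224 B cells (4.91%, 2.48% to 8.62%) and 0 of 342 A cells reached the limit. It was also reached by 0 of the 74 mixed barcodes. The 27 B members under the limit had a median of 2.64%, and the deep B cells under it had a median of 3.42%.

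Cells above the limit were not spread evenly over depth. Of B cells in the 300 library, 16 of 37 reached it from 1000 to under 1500 UMIs, 6 of 12 from 1500 to under 2000, 8 of 32 from 2000 to under 4000, 0 of 75 from 4000 to under 8000 and 3 of 117 at 8000 or more. The numbers of the 150 library were 3 of 3, 2 of 2, 3 of 3, 0 of 2 and 0 of 25. The bound of 2000 UMIs therefore did not separate these cells from the rest, since B cells above 9% went on up to 3702 UMIs in the 300 library and 3143 UMIs in the 150 library. The 3 B cells above the limit at 8000 UMIs or more lay nearer to it, at 7.69% to 8.36%. Over the 49 B members of the 300 library, the Spearman rho between UMIs and the share of the 17 genes was -0.02.

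**Figure D3:**
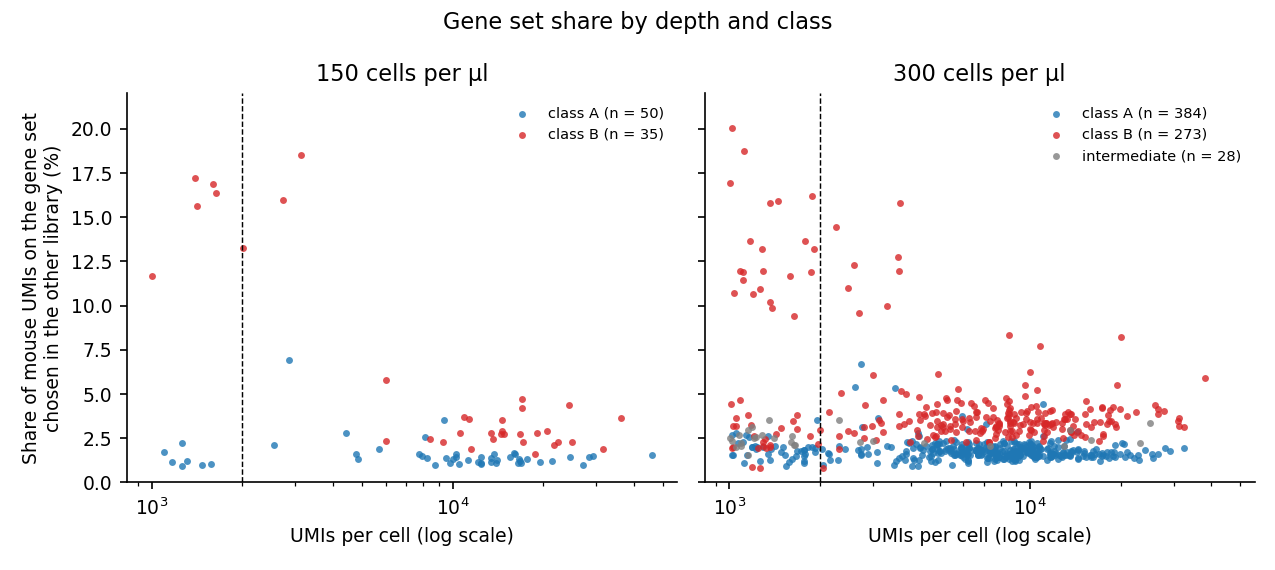
Percent of mouse UMIs on the gene list chosen in the other library (y axis) against UMIs per cell (x axis, log scale) for shallow and deep mouse cells of each library, 1 point per cell, coloured by profile class, with a dashed line at 2000 UMIs. Class B members above 9% stand apart from all other members in both libraries, 5 of 5 in the 150 library and 22 of 49 in the 300 library, and deep B cells above 9% continue to 3702 UMIs.

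Since these genes also took a larger share in deep B cells than in deep A cells, their own counts could have moved cells into class B. The class was therefore called again without any of the 21 genes of either list. All 5 and all 22 members above the limit were again class B, with class A shares of at most 0.045 and 0.235. Over all members, 12 of 12 and 106 of 109 kept their class.

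Foreign UMIs, depth and complexity were read beside this. The 22 members above the limit held from 8 to 62 human UMIs with a median of 26.5, and the 27 other B members from 2 to 89 with a median of 37. The 5 cells of the 150 library held from 24 to 64. Their median depth in the 300 library was 1288.5 UMIs, close to the 1290 of the other B members. The share drawn from the class A profile had a median of 0.039 in them and 0.151 in the other B members. It was estimated with the listed genes included, which were more abundant in deep B cells, so choosing cells by these genes can itself lower it. In the 22 members its highest value was 0.132, and 0.235 with the 21 genes of either list left out. No median was taken without these genes. At 1000 UMIs the members above the limit had medians of 675 genes in the 150 library and 705 in the 300 library, against 723 in the other B members of the latter. With mouse UMIs alone thinned to 900 the order in the 300 library turned, with 651 genes against 648. Their 50 most abundant genes held 30.8% and 27.1% of the thinned UMIs, against 22.7% in the other B members of the 300 library. Picking cells by a high share of a few abundant genes can itself raise this value and lower the number of genes.

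The most abundant genes of both lists were ENSMUSG00000092341 and ENSMUSG00000064370, which are named here because of their counts, after their values were seen. ENSMUSG00000064370 held 1.996% of the mouse UMIs of members in the 150 library (1.78% to 2.23%) and 0.839% in the 300 library (0.793% to 0.888%). Deep cells had 0.470% and 0.377%, and background had 0.227% and 0.245%, below both. ENSMUSG00000092341 held 2.14% (1.92% to 2.38%) and 0.986% (0.936% to 1.04%) in members. Deep cells had 0.567% and 0.479%. Here the background lay above the deep cells, with 0.617% and 0.795%. Both genes thus had their highest summed share in members, but they stood on opposite sides of the deep cells in background.

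The same genes varied apart from each other within the group. ENSMUSG00000064370 held from 2.64% to 5.49% in the 5 B members of the 150 library, while the highest A member had 0.268%. In the 22 members above the limit in the 300 library it held from 0.148% to 8.02%, and 21 of them exceeded the highest A member, at 0.524%. ENSMUSG00000092341 was less regular. In the 5 cells of the 150 library it held from 0.207% to 7.34%, with 4 above the highest A member at 0.638%. In the 22 cells of the 300 library it held from 0 to 8.70%, with 15 above the highest A member at 1.21%. Members rich in the first gene could therefore be rich or poor in the second, and across the 49 B members the 2 percentages were only weakly related (Pearson r = 0.15, Spearman rho = 0.23). In A members of the 300 library, summed shares were 0.211% (0.175% to 0.251%) and 0.346% (0.301% to 0.397%), against 0.252% and 0.224% in deep A cells. ENSMUSG00000092341 was thus higher in A members than in deep A cells there, beyond counting error, while the interval of ENSMUSG00000064370 met that of deep A cells (0.246% to 0.257%). The interval of ENSMUSG00000092341 for A members, 0.212% to 0.461% in the 150 library, held the deep A value of 0.304%. ENSMUSG00000064370 was lower there beyond counting error, on 15 UMIs in 7 cells, with 0.171% (0.0957% to 0.282%) against 0.300% in deep A cells (0.286% to 0.314%). These intervals leave out the spread between cells and between libraries, and the edgeR fit within classes given below called no gene in class A. That fit had low power, so its lack of calls in class A does not decide on these differences.

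**Figure D4:**
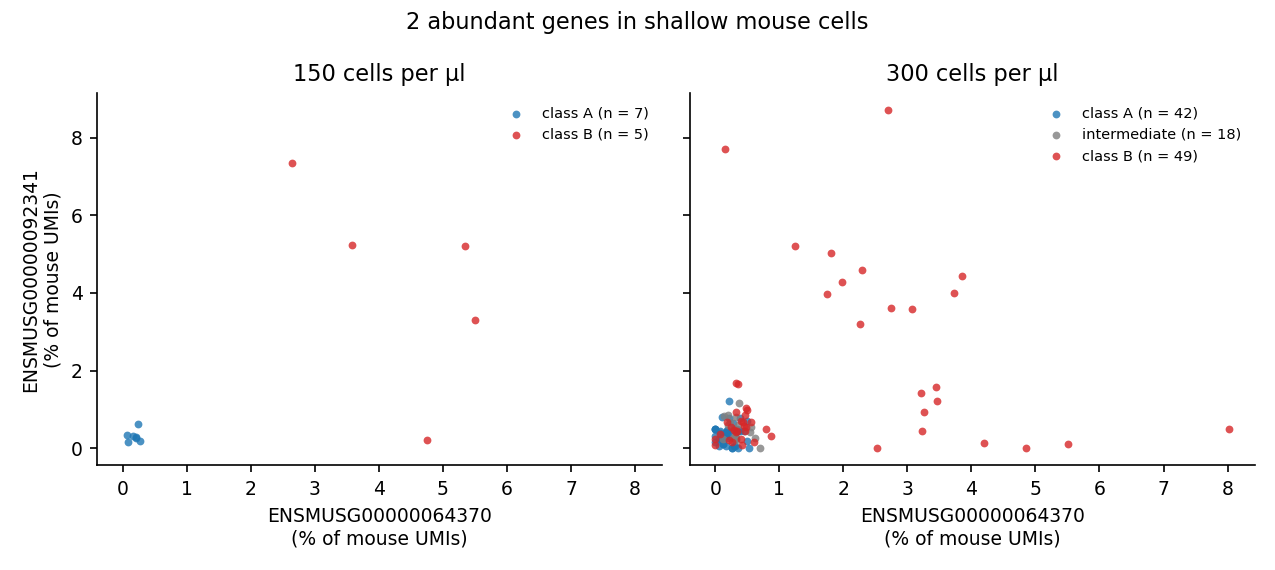
Percent of mouse UMIs on ENSMUSG00000064370 (x axis) and ENSMUSG00000092341 (y axis) in every shallow member of each library, coloured by class. A and intermediate members cluster near the origin, and the B members away from it extend along both axes, up to 8.02% on the first and 8.70% on the second.

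Genes were also chosen within each class, with at least 10 UMIs in members of the 150 library or 50 in those of the 300 library, to ask whether A members had a list of their own. This limit was again set on members' own UMIs, so the numbers passing can be raised by it. For class A, 15 of 137 genes passed the ratio in the 150 library, but they held 1.39% of A members' UMIs in the 300 library (1.30% to 1.49%) and 1.43% in deep A cells (1.41% to 1.44%). Choosing in the 300 library gave 1 of 158 genes, which held 0.319% against 0.304% in the 150 library. For class B, 33 of 79 genes passed in the 150 library and held 9.14% against 4.99% in the 300 library, and 21 of 176 passed in the 300 library and held 17.4% against 3.82% in the 150 library. At these counts a list carried over between the libraries for B members and none did for A members, and this difference between the classes was not tested.

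A test with libraries as replicates was run on UMIs summed per library and depth class, 4 sums in all, with edgeR's quasi-likelihood test and the library as a block. It had few counts and 2 libraries to work with. Of 6885 genes, 1 had an adjusted p under 0.05 (0.0145% of genes tested, higher in members), 0 were lower, and 106 (1.54%) had an unadjusted p under 0.05. DESeq2 called 2 genes, both higher, which were ENSMUSG00000064370 (adjusted p = 0.00092) and ENSMUSG00000092341 (adjusted p = 0.0041). In edgeR their log2 fold changes were 1.31 (SE 0.93) and 1.17 (SE 0.96), with adjusted p = 1.0 for both. The log2 ratios of their shares of mouse UMIs, members over deep cells, were 2.09 and 1.92 in the 150 library, and 1.16 and 1.04 in the 300 library. The TMM factors scale sums by a trimmed mean of gene ratios. They shifted members against deep cells by 0.63 on the log2 scale in the 150 library and by -0.0088 in the 300 library. A positive shift lowers members' fold changes in the fit. In the 150 library it ran against the 525 genes with at least 5 expected UMIs, whose median log2 ratio was -0.29. Why the factor differed from these genes was not tested, and the edgeR counts depend on it. With library totals alone edgeR called 17 genes, all higher (0.247%).

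The edgeR call was ENSMUSG00000097971, named here after its values were seen, with a log2 fold change of 2.56 (SE 0.56, adjusted p = 0.029). It rested on 1 UMI among the 12 members of the 150 library, where deep cells held 18 UMIs in 12 cells. Of the 300 library, 22 UMIs were found in 11 of 109 members and 130 UMIs in 112 of 576 deep cells, which is 0.0152% (0.0095% to 0.0230%) against 0.0024% (0.0020% to 0.0029%) of mouse UMIs. Background held 0.0150% and 0.0129%, as much as members, and 1 background barcode of the 150 library had 21.6% of its mouse UMIs on this gene. The call was lost with DESeq2 (adjusted p = 0.999), with genes of low counts kept in (adjusted p = 0.059), with the background subtracted (adjusted p = 0.057), at 95% purity (adjusted p = 0.53) and for members under 1500 UMIs (adjusted p = 0.33), with log2 fold changes from 2.28 to 2.83 over the fitted alternatives. With deep cells thinned the gene was below the filter on low counts and was not tested.

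Within classes, 8 sums were fitted together. For class B, 10 of 5667 genes had an adjusted p under 0.05 in edgeR, 9 of them higher in members (0.159%) and 1 lower (0.0176%). For class A there were 0 calls in edgeR, with 255 genes at an unadjusted p under 0.05 and 7 calls by DESeq2. The difference between the classes, tested as an interaction, gave 0 calls in edgeR, with 281 genes at an unadjusted p under 0.05 and 17 calls by DESeq2. With library totals in place of TMM factors, the edgeR interaction gave 16 calls. A change confined to class B was therefore not shown gene by gene by the edgeR test with TMM. The power of these fits was low, as given with the processing below, so 0 calls do not show that class A was unchanged.

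Of the B genes, ENSMUSG00000064368 rose by a log2 fold change of 1.99 (SE 0.35, edgeR adjusted p = 5.7e-05), from 11 and 38 UMIs in B members and 125 and 284 in deep B cells of the 150 and 300 libraries. It had 1 UMI in the A members of each library. ENSMUSG00000097971 rose by 2.81 (SE 0.50, adjusted p = 6.9e-05), on 1 and 19 UMIs in B members. The gene that was lower, ENSMUSG00000006360, fell by 2.17 on the log2 scale (SE 0.53, edgeR adjusted p = 0.038), with 0 and 10 UMIs in B members against 245 and 1377 in deep B cells. DESeq2 called 0 genes lower in class B and 37 higher, so this call was lost with it. In class A its log2 fold change was -0.30 (SE 0.59), and the interaction was not past the threshold (adjusted p = 0.97). The abundant genes did not pass in class B, with log2 fold changes of 1.59 (SE 0.68, adjusted p = 0.61) for ENSMUSG00000064370 and 1.18 (SE 0.68, adjusted p = 0.77) for ENSMUSG00000092341. In class A they were -0.84 (SE 0.71) and -0.03 (SE 0.70).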

How the data were processed

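The authors deposited 1 table per library of whole-number UMI counts, with genes as Ensembl identifiers under a species prefix in rows and barcodes in columns. Per the labels and the study's methods, STAR 2.4.2a was used for alignment to the combined hg19 and mm10 reference of Cell Ranger 1.2.0 with Drop-seq tools for counting and seqtk for downsampling of reads. Whether these tables come from downsampled reads is not stated. Samples were grouped by the loading concentration in the labels.

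Members were found by UMIs and purity, and members, gene lists and limits were chosen with earlier results of these data known. No doublet caller was run. Of the Ensembl identifiers, 0 matched the gene table at hand, so the planned marker, mitochondrial and nuclear lists were not used, and the planned marker-based classes were replaced by a split on the first principal component (2000 variable genes, 10000 UMIs per cell, log scale) and a maximum-likelihood mixture share. Barcodes were thinned at random without replacement to 1000 UMIs. Shares have exact Clopper-Pearson intervals and medians order-statistic intervals, at 95%.

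Summed counts were tested in R 4.3.3 by edgeR 4.0.16 (quasi-likelihood) with TMM, filterByExpr, the library as block and Benjamini-Hochberg adjustment at 0.05, and with DESeq2 1.42.0. The script was tested on simulated data. The 2 libraries, which share cell lines and differ in loading, stood as the replicates, so p-values measure the spread between them. Genes to be named were to be the 12 largest changes per direction past the threshold with at least 200 CPM (counts scaled to a common total) in both libraries. No gene met this, and those printed were chosen after their values were seen, at most 2 per direction and comparison, as the tables do not pair identifiers with names. Python 3.11.15 was used otherwise.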

Additional observations from a re-analysis of the deposited data

How the results depend on the processing

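The number of genes called between shallow and deep mouse cells was 1 of 6885 tested and changed with most settings, which also changed the genes tested. It was 2 with DESeq2 and 17 with library totals, of 6885 each. With deep cells thinned it was 11 of 2646, none of them the main call. It was 0 of 14219 without the filter on low counts, 0 of 6871 at 95% purity, 0 of 6694 for members under 1500 UMIs and 0 of 6780 with the background subtracted. It was 1 with no replicate block and with deep cells of at least 5000 UMIs. The labels give no replicate numbers that pair samples, and the block is the library. Leaving out either library left no test, and the log2 ratio of ENSMUSG00000097971 was then 1.90 or 2.65.

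Within classes, DESeq2 called 7 genes for A, 37 for B, 10 for their mean and 17 for their difference, and library totals gave 2, 36, 21 and 16. Of the 5667 genes, DESeq2 gave no adjusted p for 110 in B and for 2088 in the mean. The edgeR counts of 0, 10, 0 and 0 were 0, 12, 0 and 0 with class limits of 0.9 and 0.1, and 0, 7, 0 and 1 with the background subtracted. The cause was not tested.

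In the 300 library intermediate members were 54.1% with limits of 0.9 and 0.1 and 6.33% at 95% purity, where the median human share was 2.35%, which that limit lowers by construction. Members within 2 mismatches of a deeper barcode were 2 in each library. The ratio of genes per cell in members over deep cells turned from 1.004 to 0.975 and from 1.006 to 0.982 with mouse UMIs alone, a setting added after seeing the data. The share of B members above the limit of 7% was 44.9% in the 300 library and 62.5% with class limits of 0.9 and 0.1. It was 50% at 95% purity and 43.2% for members under 1500 UMIs. Limits of 6% or 9% fell in the same gap, from 4.64% to 9.42%, so the 44.9% could not change with them. In the 150 library it was 100% in all of these, which was fixed in advance, since its lowest B member had 11.7%. The alternatives for mitochondrial and nuclear RNA, for marker genes alone and for genes per cell without mitochondrial UMIs were not run.

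Depth limits these results most in the 150 library, whose 12 members held 15582 mouse UMIs.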
